A study of Mus musculus with 34 samples.

Results

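The probes described here carry no gene name. The array, an Agilent mouse 60-base oligonucleotide design, holds 55681 probes that are not controls, and 17104 of them are named only by a genome interval (16194 probes, most of them placed in candidate long intergenic non-coding RNA, lincRNA, regions) or only by the probe's own identifier (910 probes). Of these 17104, the 11774 chosen by the scanner software's own mark for a spot well above background, which had to be set on both arrays of some group, were kept, 11009 named by an interval and 765 by identifier alone. They made up 11774 of the 43382 probes tested, the other 31608 having a gene name or another name. The mark that chose them is itself a measured value, so how many were seen in each group is given as a description with no test, and a probe that entered through 1 bright group alone had to differ from the dim ones.

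Total RNA from mouse heart cells was hybridised to 34 one-colour arrays, 2 for each of 17 groups. All cells came from the CD1 strain with the aMHC-GFP genotype, a fluorescent reporter under a cardiomyocyte promoter. Freshly isolated neonatal cardiac fibroblasts (neoCF) and neonatal cardiomyocytes (neoCM) came from pups of postnatal day 1.5. Induced cardiomyocytes (iCM) were fibroblasts kept for 4 weeks after infection with a retrovirus that carries Mef2c, Gata4 and Tbx5 on a single transcript (MGT). Cells differentiated towards cardiomyocytes from fibroblast-derived induced pluripotent stem cells (made with Oct4, Sox2, Klf4 and cMyc) were taken from line 1 at day 13 (iPSC1CM_D13) and from line 2 at day 9 and day 29 (iPSC2CM_D9 and iPSC2CM_D29). Fibroblasts before infection (CF_D0) and fibroblasts 3, 5, 7, 10 and 14 days after MGT or after a LacZ control virus completed the series. The iCM and the stem cell derived cells were grown in StemPro-34 medium with ascorbic acid, VEGF, bFGF and FGF10. The labels name no sorting step, and they do not say whether the 2 arrays of a group came from separate cultures, so p-values measure only the spread between these arrays, which may be technical.

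LincRNAs are transcripts longer than the usual small RNA classes that lie between protein-coding genes and are not translated into a known protein. Many are transcribed by RNA polymerase II, spliced and polyadenylated like messenger RNA, at lower levels and in fewer tissues than most coding genes. Some lie beside a developmental regulator and are transcribed with it, others are unannotated ends of a coding transcript. In heart the best known long non-coding RNAs are Mhrt, transcribed from the Myh7 locus, and the imprinted RNAs H19 and Meg3.

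The following 60-base probes, printed 5′ to 3′ from the scanner files, are those on which most of the results turn. Capitals mark the longest run of 20 or more bases that a probe shares with a probe carrying a gene name, and a sequence wholly in lower case shares no such run. Coordinates are those of the scanner files, build mm9. The first lies at chr2:113887119-113887178, forward strand, 13996 bases from the nearest probe of Actc1, which lies on the opposite strand. The second lies at chr9:78116894-78116953, forward, in the glutathione S-transferase alpha cluster, and its 60 bases are those of the array's Gsta1 probe. The third lies at chr1:175653663-175653722, reverse, and shares 42 bases with the probe of Ifi207, an interferon-inducible gene. The fourth lies at chr3:137744343-137744402, forward, with the same 60 bases as a probe of 1110002E22Rik. The fifth, chr16:13514766-13514825 on the reverse strand, shares 42 bases with 2310015D24Rik. The sixth, chr12:110983303-110983362, is on the reverse strand, antisense to Mirg, a non-coding RNA of the imprinted Meg3 cluster. The seventh is at chr19:60238375-60238434, forward, beside E330013P04Rik. The eighth is at chr9:114416756-114416815, reverse, 3600 bases from Trim71. The last is at chr6:31235063-31235122, forward, in the region of 2210408F21Rik.
A_30_P01029543: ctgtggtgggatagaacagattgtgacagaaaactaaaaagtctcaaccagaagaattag
A_30_P01028766: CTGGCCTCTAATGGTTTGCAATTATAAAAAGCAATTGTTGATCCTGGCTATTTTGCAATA
A_30_P01019537: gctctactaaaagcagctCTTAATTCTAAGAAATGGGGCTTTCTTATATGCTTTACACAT
A_30_P01024709: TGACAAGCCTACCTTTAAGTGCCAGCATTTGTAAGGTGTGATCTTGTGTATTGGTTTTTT
A_30_P01021691: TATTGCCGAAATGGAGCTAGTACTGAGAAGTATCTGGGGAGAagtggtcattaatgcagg
A_30_P01026210: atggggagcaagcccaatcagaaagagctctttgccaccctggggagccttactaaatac
A_30_P01021981: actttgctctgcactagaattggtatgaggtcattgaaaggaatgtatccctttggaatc
A_30_P01018272: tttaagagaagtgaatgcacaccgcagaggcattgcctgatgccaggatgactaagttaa
A_30_P01022038: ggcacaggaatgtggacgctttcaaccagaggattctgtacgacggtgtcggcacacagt

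Levels below are log2 of the scanner's processed intensity minus the 75th percentile of the same array, so 0 is the brightness of that percentile. A level describes 1 probe and is compared only with the same probe on other arrays. A probe was called higher or lower when limma gave a Benjamini-Hochberg adjusted p under 0.05 over all probes tested and a difference of at least 2-fold. Where a probe was not well above background on either array of the dimmer group, the fold is a lower bound, written "at least N-fold". It sets the mean of the brighter group against the mean, over the dim arrays, of the higher of the probe's own level and the lowest level that was well above background on that array.

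The 75th percentile of intensity ran from 729 to 3778 over the 34 arrays (median 1648), and the number of spots well above background from 28715 to 44881. No spot was saturated. Both extremes of brightness matter below: the second LacZ day 14 array was the dimmest, and the second iCM array the brightest. Replicates lay at least 2-fold apart for 32% of the unnamed probes kept in iPSC2CM_D29 (40.5% of the named ones), for 26.5% in LacZ day 14 (15.2%), for 13.2% in iPSC2CM_D9, for 11.2% in neoCM and for 4.13 to 8.15% in the other 13 groups. In LacZ day 14, 2616 of the 3118 such probes were higher on replicate 2. The arrays sat on 6 slides scanned on 3 days. The MGT and LacZ groups of days 3 to 10 shared slides, as did iPSC2CM_D9 with iPSC2CM_D29 and LacZ day 14 with CF_D0, and iCM shared a slide with 1 of the neoCM arrays. In the other comparisons slide and group cannot be told apart. Markers bore on the labels as well: the median level of 10 cardiomyocyte genes was 7.29 and 7.40 in neoCM but 2.28 and 2.50 in iCM, against 1.94 and 1.10 in neoCF, while that of 8 macrophage genes was 4.09 and 4.07 in iCM, 2.61 and 2.07 in neoCF and -2.08 and -1.97 in neoCM. In these bulk samples fewer cells of a type and less RNA per cell cannot be told apart.

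Unnamed probes were seen less widely than named ones. On both arrays of a group, between 25.9% (LacZ day 14) and 58.6% (neoCF) of the 17104 unnamed probes were well above background, against 54.8% and 75.8% of the named probes in the same groups. After neoCF came iPSC1CM_D13 with 57.1%, MGT day 14 with 54.4% and iPSC2CM_D29 with 54.2%, whereas iPSC2CM_D9 had 48.3%, iCM 43.4%, neoCM 43.2% and MGT day 10 34.7%. The share followed the named probes from group to group and the brightness of the arrays was not held constant, so its part in these shares was not tested. Of the 11774 kept, 3833 (32.6%) were well above background in all 17 groups, against 19150 (60.6%) of the 31608 named probes. A further 1169 (9.93%) were so in a single group only, against 1641 (5.19%) of the named probes, most often neoCF (315 probes), iPSC2CM_D29 (244), iPSC1CM_D13 (205) and MGT day 14 (136). At the edge of the rule, probes that passed in 1 group had a median highest group mean of -5.06, and those just outside, 3024 probes above background on some array but on both arrays of no group, had -5.70. The remaining 2306 were above background on no array.

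**Figure D1:**
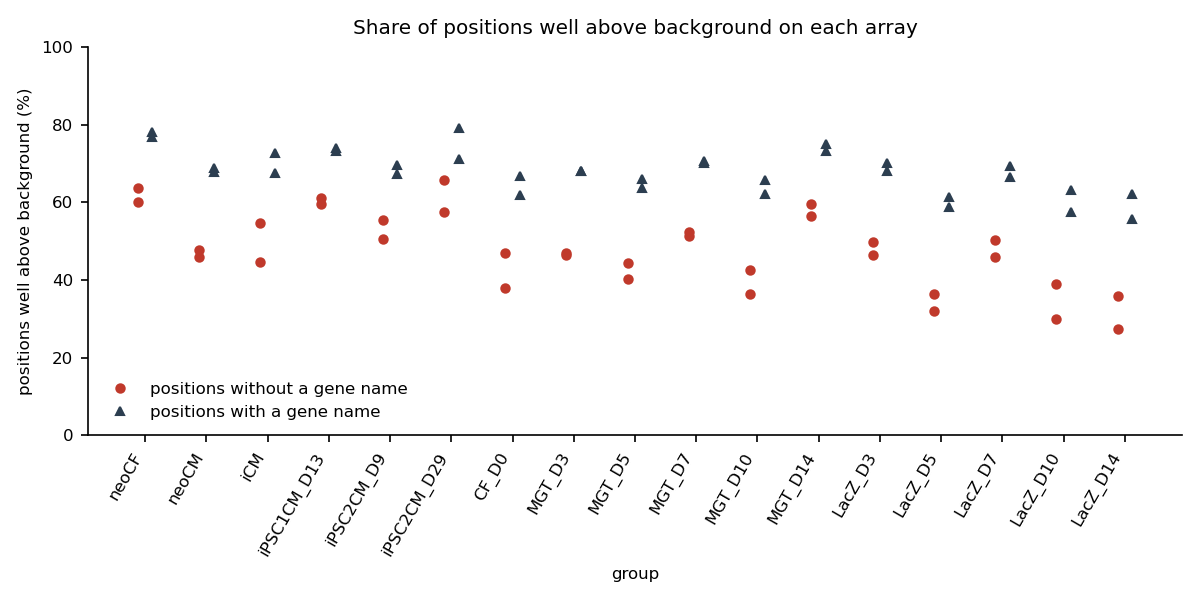
Share of probes well above background on each array (y axis, percent of probes), in each of the 17 groups (x axis). Unnamed probes and probes with a gene name are shown separately. Unnamed probes sit below named ones on every array, from 27.5% on the second LacZ day 14 array to 65.8% on the first iPSC2CM_D29 array.

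The 11009 kept probes with an interval were spread over the autosomes and X, from 238 on chromosome 19 to 799 on chromosome 1, and between 62.6% (chromosome 13) and 75% (chromosome 5) of such probes of a chromosome were kept. They lay in 3189 of the 3543 intervals that name the probes, whose median length was 7304 bases (quartiles 786 and 21807). Merging overlapping intervals gave 2226 loci, 2031 with at least 1 kept probe, and a median of 3 such probes in a locus. Locus size varied widely, since 353 loci held 10 or more kept probes and 379 held 1. Of the 1067 intervals with probes on both strands, 917 had a probe well above background on each strand in some group, 54 on the forward strand only, 74 on the reverse strand only and 22 on neither. Transcription that was seen from 1 strand alone therefore made up 128 of these intervals, or 214 when 3 groups were required. Probes of 1 locus share a transcript or its neighbourhood and are not replicates.

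Probes of the same interval and strand moved together across the series more than probes of opposite strands did. The median Pearson correlation over the 17 group means was 0.57 for 14990 same-strand pairs in 2301 intervals (29.2% of pairs above 0.8) and 0.28 for 11817 opposite-strand pairs in 914 intervals (6.5% above 0.8). All pairs share arrays and scaling, and with quantile normalization the medians were 0.48 and 0.16. With the nearest probe of a named gene the correlation depended on distance and strand. Within 5 kb on the same strand the median was 0.56 (1390 probes), between 5 and 50 kb it was 0.14 (4268 probes) and beyond 50 kb 0.11 (5026 probes), while on the opposite strand it was 0.27, 0.08 and 0.08. The median distance from a kept probe to a named gene's probe was 19484 bases, and 2501 of the 11009 kept probes with an interval lay in one that also holds a named gene's probe. Part of the set therefore reads known transcripts: 455 of the 11774 (3.86%) shared 20 or more bases with a named probe, and 63 had a sequence identical to one. Across the 60 identical pairs the median correlation was 0.971 and the median absolute difference in level 0.10, with 15 pairs below 0.9 and a minimum of 0.245.

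**Figure D2:**
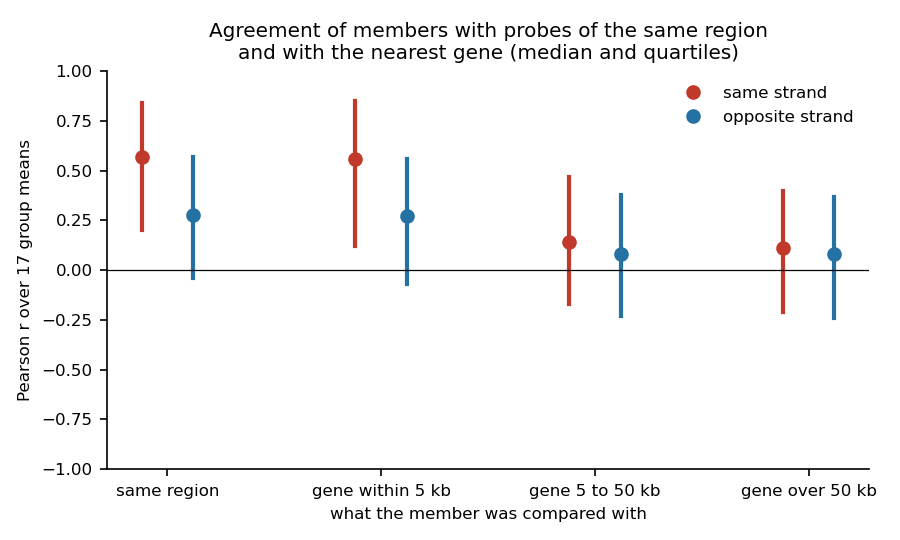
Pearson correlation over 17 group means (y axis; point at the median, bar over the quartiles) between unnamed probes of the same interval and between an unnamed probe and the nearest probe of a named gene by distance (x axis), for same and opposite strands. The same-strand medians fall from 0.57 within an interval and 0.56 within 5 kb of a gene to 0.14 and 0.11 farther away.

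Neonatal cardiomyocytes and fibroblasts were compared first, as the cell types from which induced cells are to be told apart. In neoCM 1977 of the 11774 unnamed probes were higher than in neoCF (16.8%, against 15.7% of all 43382 probes tested) and 1510 lower (12.8%, against 15%). The calls lay in 953 loci with a higher and 731 with a lower probe, 355 of which held both. The median difference was 0.09 for the unnamed probes and -0.01 for all probes. As shares, the unnamed probes stood near the background.

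**Figure D3:**
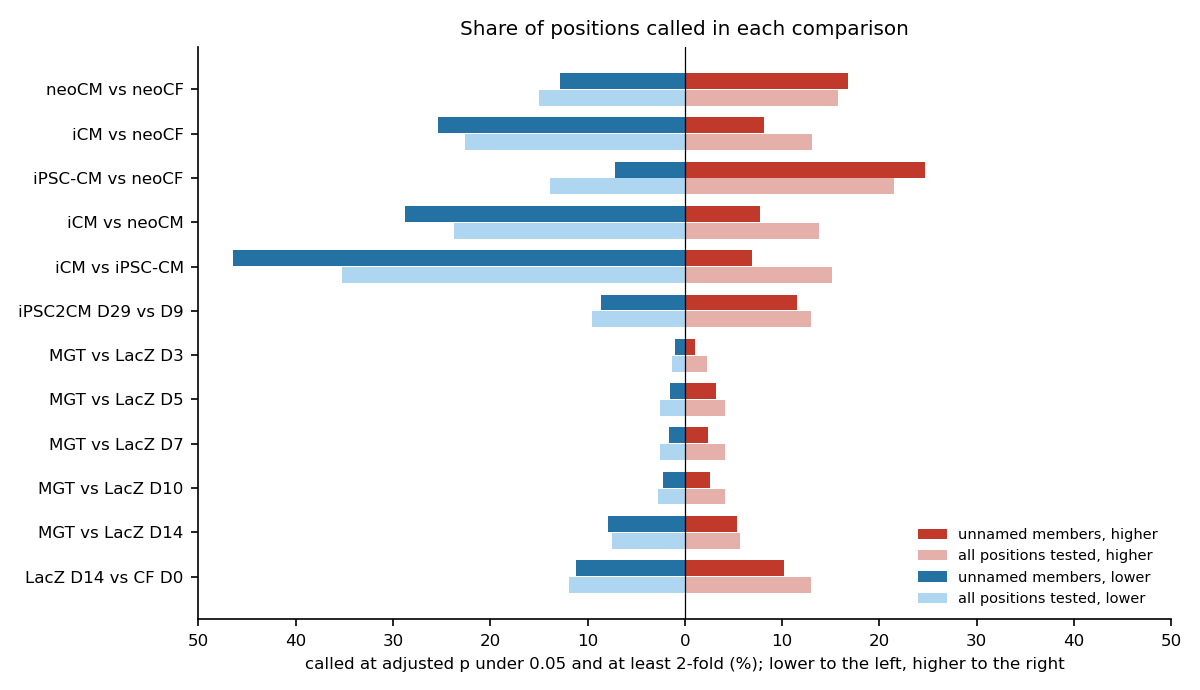
Percent of unnamed probes and of all probes tested that were called higher or lower (x axis) in each of 12 comparisons (y axis). In iCM against the stem cell derived cells 46.4% of unnamed probes were lower against 35.2% of all probes.

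Beside Actc1, the gene of cardiac alpha-actin, the 3 forward-strand probes of chr2:113880070-113887230 were all higher in neoCM than in neoCF (median difference 4.64). A_30_P01029543 had levels of 3.46 and 2.91 in neoCM and -0.86 and -1.09 in neoCF, a difference of 4.16, and the Actc1 probe itself differed by 2.98. Both groups were well above background there and did not overlap. At chr3:137734560-137752677 all 9 forward-strand probes, the same strand as the gene 1110002E22Rik, were higher in neoCM (median 5.10). The levels of A_30_P01024709, printed above and with the 60 bases of a probe of that gene, were 3.52 and 3.24 in neoCM. Another probe of the gene, A_55_P2132671, was at 0.76 and 0.88 in neoCM and -0.09 and -0.36 in neoCF. Another neoCM region was farther from a named gene. A_30_P01029463, at chr5:120269342-120279542 on the forward strand, had -1.37 and -2.05 in neoCM against -8.59 and -7.78 in neoCF (difference 6.47, SE 0.71, limma adjusted p = 4.2e-07, at least 32.9-fold). Its nearest tested gene was Tbx5, a cardiac transcription factor that is part of MGT, 58037 bases away. On the arrays of MGT cells it was well above background on 1 array. E530001K10Rik, at chr2:94082835-94101939, had 4 of 5 reverse-strand probes higher in neoCM (median 4.84).

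Fibroblast-side regions included chr4:128727332-128735227, where A_30_P01020118 had 0.12 and 0.59 in neoCF and -5.31 and -7.71 in neoCM, a difference of -6.86. This probe was at 2.15 to 2.84 in MGT cells from day 5 onwards. All 11 reverse-strand probes around Ifi207 at chr1:175653557-175672031 were lower in neoCM (median -4.64), as were all 5 forward ones. The macrophage markers were lower as well (medians of -2.08 and -1.97 in neoCM, 2.61 and 2.07 in neoCF), and their part was not tested. Ifi207 and Ifi204 belong to a family of interferon-inducible DNA sensor genes with near-identical copies, so which member a probe reads is uncertain.

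The stem cell derived cells, taken as the 4 arrays of iPSC1CM_D13 and iPSC2CM_D9, were set against the same neoCF arrays. Here 2909 unnamed probes were higher (24.7%, against 21.5% of all probes) and 844 lower (7.17%, against 13.9%), with medians of 0.51 and 0.34. Higher probes were 77.5% of the calls, and 68.4% (2188 higher, 1012 lower) with quantile normalization, 71.3% with normexp and 71.3% with the authors' values. They were found in 1038 loci and lower ones in 381 with the main scaling. At Trim71, a gene of embryonic and pluripotent cells whose product binds RNA, all 4 reverse-strand probes of chr9:114412295-114418384 were higher (median 5.04). A_30_P01018272 had 0.41 and 0.08 in iPSC2CM_D9, -3.32 and -3.44 in iPSC1CM_D13, -0.64 and -2.28 in iPSC2CM_D29, and -8.88 and -7.56 in neoCF. All 6 stem cell derived arrays lay above both neoCF arrays, and the difference was 6.66 (SE 0.74, limma adjusted p = 3.2e-07, at least 36.4-fold). One probe of Trim71 itself differed by 6.42 and another, with 0.86, was not called. The median level of the 5 pluripotency genes tested was -2.96 and -2.87 in iPSC1CM_D13 and -1.91 and -2.00 in iPSC2CM_D9, against -4.56 and -4.69 in neoCF, and its part in this difference was not tested.

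A_30_P01025511, at chr4:149445201-149445902 and 33829 bases from Gpr157, had the tightest large difference of this comparison among those described, 5.50 (SE 0.21, limma adjusted p = 9.3e-14). It was at -2.93 and -2.83 in neoCF and -3.70 and -3.98 in neoCM, and at 1.07 to 3.27 on all 30 other arrays. The 4 arrays of cells taken directly from pups were thus the low ones and those of every other group, CF_D0 and LacZ cells included, the high ones. On the lower side, the 11 reverse-strand probes around Ifi207 all fell (median -8.34), and A_30_P01019537, printed above, fell by 9.01 on the log2 scale (at least 122-fold). Mgam, the gene of a digestive glucosidase, had all 7 forward-strand probes of chr6:40693617-40720167 lower, and A_30_P01030527 there was at -0.73 and -0.06 in neoCF and -5.05 to -7.27 in the stem cell derived cells. Macrophage markers moved with both regions: 8 of 8 were well above background on both arrays of neoCF, but 5 of 8 in iPSC1CM_D13 and 3 of 8 in iPSC2CM_D9, with median levels of -5.26, -5.66, -5.85 and -5.15 on those 4 arrays. Their part in these differences was not tested.

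Induced cardiomyocytes were compared with neoCF, neoCM and the stem cell derived cells, and these comparisons share the iCM arrays. Against neoCF 957 unnamed probes were higher (8.13%, against 13.1% of all probes) and 2996 lower (25.4%, against 22.6%), with medians of -0.44 for unnamed and -0.20 for all probes. Against neoCM 914 were higher (7.76%, against 13.8%) and 3390 lower (28.8%, against 23.7%), with medians of -0.61 and -0.28. Against the stem cell derived cells 810 were higher (6.88%, against 15.1%) and 5463 lower (46.4%, against 35.2%), with medians of -0.98 and -0.57. These splits moved with the scaling. Higher probes were 24.2%, 21.2% and 12.9% of the calls in the 3 comparisons, and 45.8%, 43.0% and 30.2% with quantile normalization, which called 1366 higher and 1614 lower, 1396 and 1849, and 1280 and 2952. The authors' deposited log2 values gave 46.4%, 39.5% and 29%, and normexp background correction with quantile normalization 46.0%, 35.2% and 27.8%. The 2 iCM arrays were among the brightest, and the part of brightness in the split was not tested.

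Some regions were far higher in iCM than in the cells it was compared with. At chr19:60220577-60238494, beside E330013P04Rik, all 3 forward-strand probes were higher in iCM than in neoCF (median 6.22), neoCM (6.03) and the stem cell derived cells (6.76). A_30_P01021981 was at -0.87 and -0.86 in iCM and -6.79 and -9.15 in neoCF (difference 7.10, SE 0.70, limma adjusted p = 9.2e-08, at least 59.2-fold). LacZ cells were intermediate, from -3.79 at day 3 to -2.24 at day 14, and MGT cells of days 3 to 14 lower, from -8.37 to -4.95. The level in iCM at 4 weeks thus lay above that of every MGT array up to day 14.

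C430002N11Rik, at chr9:96664617-96683617, had 11 of 15 forward-strand probes higher and 1 lower in iCM than in neoCF (median 2.64), 9 of 15 higher than in neoCM and 10 of 15 higher, with 2 lower, than in the stem cell derived cells. A_30_P01020835 there was at -1.64 and -1.23 in iCM and -8.09 and -8.29 in neoCF, at least 40.0-fold. It was about as high in uninfected, MGT and LacZ fibroblasts (-2.36 to -1.01), so the freshly isolated and the stem cell derived cells were the low ones. The region of 2210408F21Rik, chr6:31017987-31293337, behaved unevenly along its length: 9 of 12 forward-strand and 9 of 15 reverse-strand probes were higher in iCM than in the stem cell derived cells, with medians of 7.21 and 2.27. The 2 forward and 4 reverse probes called lower there were so only with the main scaling. A_30_P01022038 was at 2.54 and 2.36 in iCM, -6.42 and -7.42 in iPSC1CM_D13, -7.47 and -5.03 in iPSC2CM_D9, -3.63 and -3.90 in neoCF and -0.44 and -0.65 in neoCM. The difference from the stem cell derived cells was 9.03 (SE 0.42, limma adjusted p = 6.9e-13). The probe of 2210408F21Rik itself, A_55_P2405436, did not share it. That probe was at -6.10 and -6.88 in iCM, -8.01 and -4.80 in iPSC1CM_D13 and -6.19 and -6.02 in iPSC2CM_D9. It was well above background on both arrays of LacZ day 7 only.

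The interferon-inducible loci on chromosome 1 gave the largest of the printed differences of iCM. All 11 reverse-strand probes around Ifi207 were higher in iCM than in neoCM (median 6.75) and than in the stem cell derived cells (median 10.63, and 7.07 to 10.36 with the other scalings). A_30_P01021447, 1343 bases from the Ifi207 probe, was at 3.23 and 3.34 in iCM, 0.35 and 0.30 in neoCF, -4.63 and -4.34 in neoCM, -8.52 and -8.46 in iPSC1CM_D13 and -7.63 and -7.65 in iPSC2CM_D9. Its difference from the stem cell derived cells was 11.35 (SE 0.78, limma adjusted p = 2e-10, at least 538-fold). Fibroblasts before infection were close to iCM, with 3.14 and 3.01 in CF_D0. Over the 17 group means this probe correlated with Ifi207 at 0.997. Beside Ifi204, at chr1:175705225-175717250, all 5 reverse-strand probes did likewise (medians 4.02 and 8.41), with A_30_P01024163 at 4.50 and 4.53 in iCM and -0.85 and -1.08 in neoCM. The named probes differed between iCM and the stem cell derived cells by 11.48 and 6.75 (Ifi207) and 12.09 (Ifi204). Macrophage markers were high in iCM (medians of 4.09 and 4.07) and low in neoCM and the stem cell derived cells, as given above, but lower in CF_D0 (0.10 and 0.11), where A_30_P01021447 was close to iCM. Their part in these differences was not tested.

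Other regions were low in iCM. All 9 forward-strand probes of 1110002E22Rik were lower than in neoCM (median -8.22) and than in the stem cell derived cells (median -4.81, with 9, 7 and 8 of the 9 called under the other 3 scalings). A_30_P01025862, at chr3:137744052-137744111, was at -8.99 and -7.69 in iCM, 1.47 and 1.48 in neoCM, -3.49 and -3.67 in neoCF, -1.19 and -1.49 in iPSC1CM_D13 and -2.09 and -3.27 in iPSC2CM_D9. Against neoCM it differed by -9.81 (SE 0.90, limma adjusted p = 2.6e-08, at least 223-fold). The pair with identical sequence gave like values, -8.74 for A_30_P01024709 and -8.52 for the gene's probe A_55_P2414524. Another probe of the gene, A_55_P2132671, differed less, at 0.76 and 0.88 in neoCM and -1.55 and -1.32 in iCM. The 3 Actc1-side probes were also lower in iCM than in neoCM (median -5.06), while Actc1 differed by -3.17.

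At chr13:28477490-28985604, a 508115-base locus around the non-coding gene 2610307P16Rik, 28 of 32 reverse-strand probes were lower in iCM than in neoCF (median -3.55), 29 of 32 than in neoCM (-3.67) and 23 of 32 than in the stem cell derived cells (-1.74). The last count was 11 with quantile normalization, 4 with normexp and 8 with the authors' values, and no probe was called higher in any of the 4. The named probe A_55_P2004288 was called lower against neoCF (-3.23) and not against neoCM (-1.82). E530001K10Rik had all 5 reverse-strand probes lower in iCM than in neoCM (median -4.60), and A_30_P01020369, with that gene's sequence, was at -0.89 and -1.01 in neoCM and -9.05 and -8.20 in iCM, at least 41.5-fold. All 11 reverse-strand probes of chr11:112898724-113062945, on the side of Sox9, a regulator of cartilage and valve cells, were lower in iCM than in neoCF (median -2.39). That interval also holds probes of the named gene 2610035D17Rik on the same strand. A_52_P237652 was at -2.36 and -1.90 in neoCF and -3.88 and -3.78 in iCM. A_55_P2020054 was at -0.48 and -0.39 in neoCF and -2.70 and -2.60 in iCM. Near Trim61, A_30_P01031408 was at 0.93 and 0.76 in neoCF, -6.27 and -6.70 in iCM and, in MGT cells of days 3 to 14, -7.61 to -5.80, while LacZ cells went from -3.90 and -3.50 at day 3 to -6.83 and -6.39 at day 14.

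In the Meg3 cluster, a run of maternally expressed non-coding RNAs on chromosome 12, the unnamed probes beside Meg3 (chr12:110842149-110891628) were lower in iCM than in the stem cell derived cells for 12 of 12 on the forward and 10 of 11 on the reverse strand (medians -4.00 and -3.28). With quantile normalization 12 and 9 were lower, with normexp 10 and 6, and with the authors' values 11 and 9. At chr12:110944403-110988678, which also holds the probes of Mirg on the forward strand, 14 of 16 forward-strand unnamed probes were lower in the same comparison (median -2.60). One probe known only by its identifier, A_55_P2063146, was at -1.70 and -1.40 in iCM and 2.89 to 3.6 in the stem cell derived cells, a difference of -4.69. Over the 17 group means it was most like Ube2c (0.996), which encodes a ubiquitin-conjugating enzyme of mitosis. The median level of 6 cell cycle genes was -1.92 and -1.55 in iCM and 2.75 to 3.32 in the stem cell derived cells, and its part was not tested.

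**Figure D4:**
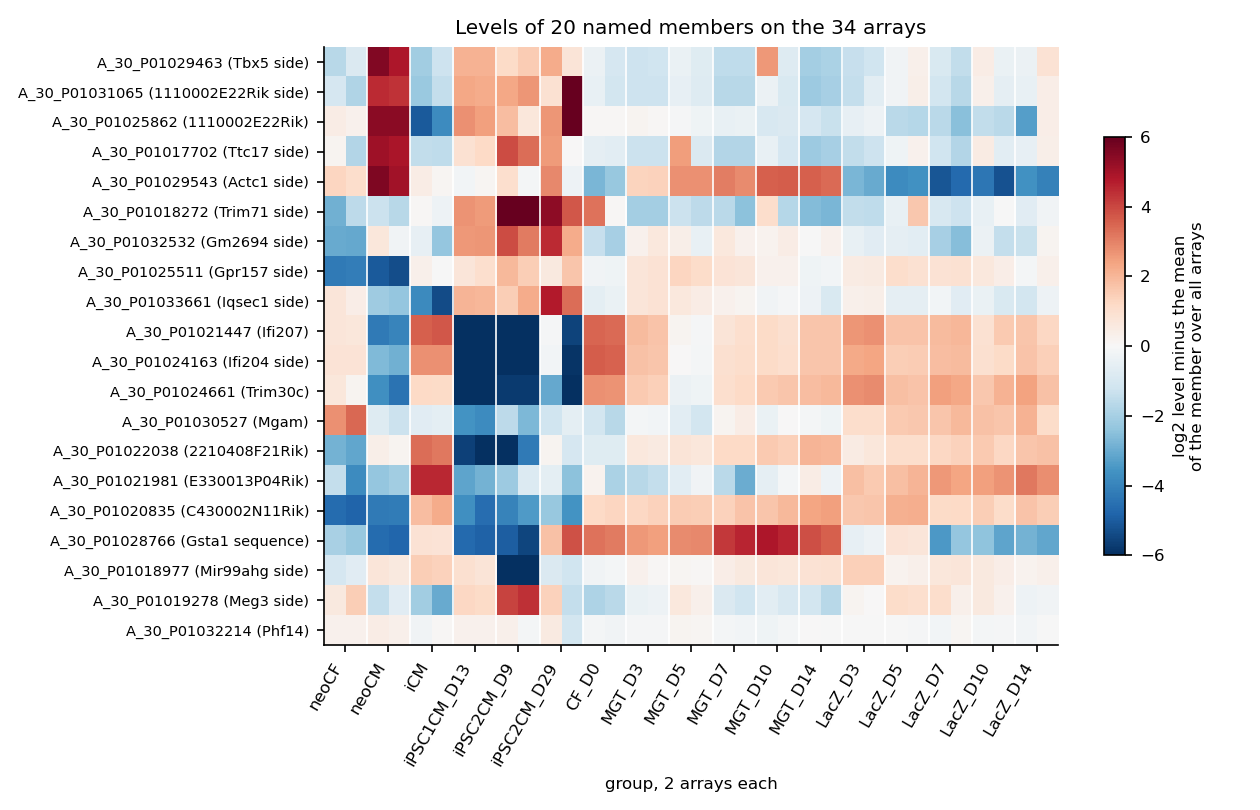
Levels of 20 named probes (rows) on all 34 arrays (columns), as log2 level minus the probe's mean over arrays on a colour scale from -6 to 6. The probes around Ifi207 and Ifi204 are high in iCM and low in iPSC1CM_D13 and iPSC2CM_D9, and A_30_P01025862 is high in neoCM (1.47 and 1.48) and low in iCM (-8.99 and -7.69).

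To follow the early response to the 3 factors, MGT cells were compared with LacZ cells of the same day. A smaller share of unnamed probes than of all probes was called at days 3 to 10. At day 3, 121 were higher (1.03%, against 2.28% of all probes) and 114 lower (0.968%, against 1.34%). The counts were 373 (3.17%, against 4.14%) and 181 (1.54%, against 2.51%) at day 5, and 281 (2.39%, against 4.13%) and 192 (1.63%, against 2.53%) at day 7. They were 304 (2.58%, against 4.16%) and 259 (2.20%, against 2.73%) at day 10. At day 14, 636 were higher (5.4%, against 5.64%) and 933 lower (7.92%, against 7.48%). The day 3 total of 235 was 146 without the second MGT array, and 142 and 150 without the first and second LacZ arrays. The day 7 total of 473 was 309 without the first MGT array. The day 14 total of 1569 was 1036 and 1045 without the first and second MGT arrays, 2436 without the first LacZ array and 928 without the second, the dimmest of the series. With 1 array left out, 74 to 96 were higher and 59 to 76 lower at day 3, and 181 to 217 higher and 123 to 199 lower at day 7. At day 14, 426 were higher and 610 lower without the first MGT array, 473 and 572 without the second, 731 and 1705 without the first LacZ array, and 551 and 377 without the second LacZ array. At day 5 the higher count fell to 227 without the second LacZ array and the lower count to 116 without the first MGT array, and at day 10 the lower count to 168 and 170 without the first and second MGT arrays. Higher probes were 40.5% of the day 14 calls, and 69.3% (941 higher, 416 lower) with quantile normalization, 49.8% with normexp, 59.2% with the authors' values and 56.0% among probes above background in at least 3 groups.

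At all 5 days 41 unnamed probes were higher (0.348%, against 1.40% of all probes tested) and 21 lower (0.178%, against 0.272%) in MGT than in LacZ cells. A further 89 (0.756%, against 1.01%) and 34 (0.289%, against 0.747%) were so at 4 days. The region beside Actc1 had 2, 2, 3, 2 and 3 of its 3 probes higher at days 3, 5, 7, 10 and 14. A_30_P01029543 was at -0.81 and -0.73 in MGT cells at day 3, 0.60 and 0.60 at day 5, 0.95 and 0.73 at day 7, 1.46 and 1.49 at day 10 and 1.46 and 1.29 at day 14. In LacZ cells it was at -4.85 and -5.16, -5.91 and -5.74, -7.26 and -6.81, -6.47 and -7.33, and -5.78 and -6.19 on the same days, and it was at -4.86 and -4.38 in CF_D0. The MGT arrays lay above every LacZ array from the first day measured. The differences were 4.23 (SE 0.60, limma adjusted p = 0.00011), 6.42, 7.88, 8.37 and 7.36, at least 35.2-fold at day 5, 103-fold at day 7, 67.9-fold at day 10 and 65.6-fold at day 14. Actc1 itself differed by 4.19, 9.69, 8.60, 10.21 and 10.76. A_30_P01023257, 9852 bases from Actc1, differed by 4.52 to 6.88. The third probe, A_30_P01029859, was called at days 7 and 14 only (5.84 and 5.10), and its difference at day 3 was 3.82 (limma adjusted p = 0.051).

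In the glutathione S-transferase alpha cluster at chr9:78104935-78118850, 3 of 4 forward-strand probes were higher at all 5 days. These genes encode detoxifying enzymes, and the probes cannot be told apart from those of Gsta1, Gsta2 and Gm10639, which are near-identical copies. A_30_P01028766, with the 60 bases of the Gsta1 probe, was at 0.43 and 0.30, 0.64 and 0.72, 2.07 and 2.39, 2.66 and 2.38, and 1.69 and 1.39 in MGT cells of days 3, 5, 7, 10 and 14. In LacZ cells it was at -2.66 and -2.49, -1.38 and -1.45, -5.64 and -4.49, -4.58 and -5.33, and -5.02 and -5.31. CF_D0 was at 1.07 and 0.93, so the LacZ cells lay below the starting fibroblasts while the MGT cells stayed within 2 log2 units of them. The differences were 2.94, 2.10, 7.29 (SE 0.44, limma adjusted p = 5.2e-10), 7.48 (at least 140-fold) and 6.71 (at least 73.6-fold). Its neighbours A_30_P01018914 and A_30_P01020518 differed by 2.04 and 1.5 at day 5, and those 2 calls were lost when any 1 of the 4 arrays was left out (1.99 to 2.09 and 1.48 to 1.52).

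At 2310015D24Rik (chr16:13514223-13516070, reverse strand) all 3 probes were higher from day 5 onwards. A_30_P01021691 was at -6.07 and -5.69 in MGT cells at day 3, where neither array was well above background, and at -4.63 and -4.34, -3.22 and -3.30, -2.84 and -2.89, and -2.40 and -2.73 on the later days. It was not well above background on any LacZ array (-8.38 to -6.36). The differences were 2.13, 2.14, 4.83 (SE 0.32, limma adjusted p = 2.1e-09), 4.01 and 4.36. Since no LacZ array was well above background, the folds are bounds of at least 1.04 at day 5, 6 at day 7, 3.36 at day 10 and 4.26 at day 14, with none at day 3, whose difference was 0.44 with normexp. For the other 2 probes the day 5 bounds were 1.03 and 1.13. It was seen in iCM at -3.17 and -2.89, while neoCM had -5.63 and -5.20. On the gene's own probe the differences were 1.88, 2.50, 3.71, 4.19 and 4.33.

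On the strand opposite to a named gene were 2 further regions, the first of them on the strand of another named gene, Hectd2os. A_30_P01018128 (chr19:36699713-36699772, 4548 bases from Hectd2 and on the other strand, where the non-coding Hectd2os lies) was at -3.55 and -3.41 in MGT cells at day 3 and rose to -1.66 and -1.73 at day 14, and was well above background on no LacZ array. Its differences were 3.01, 4.21, 5.05 (SE 0.45, limma adjusted p = 1.2e-07), 4.63 and 3.83, at least 5.38, 4.17, 13.7, 6.84 and 7.80-fold. The level in neoCM was -1.84 and -1.87, close to that of MGT cells at days 10 and 14. A_30_P01026210, antisense to Mirg, was at -4.08 and -4.34 at day 3 and -2.39 and -2.45 at day 14 in MGT cells, and at -6.29 to -5.56 in LacZ cells, 1 of whose arrays was well above background. Its differences were 1.79, 2.62, 3.09, 3.35 and 3.83 (day 14: SE 0.20, limma adjusted p = 5.8e-11), at least 3.24-fold at day 3, 2.25 at day 5, 3.33 at day 10 and 4.70 at day 14. Mirg itself differed by -1.07, -1.27, -1.44 and -1.14 at days 5 to 14 on probe A_55_P2336173 and, on A_66_P121059, was called at days 7 and 10 only (-1.44 and -1.52). At day 3 neither was called (-0.23 and -0.27). Of the 16 forward-strand probes of this locus 5 were lower at day 7, 8 at day 10 (6, 3 and 3 under the other scalings) and 1 at day 14. This reverse-strand probe, 1 of 4 in the locus, and those forward-strand ones thus moved in opposite directions.

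Near coding genes, Tet1, an enzyme that oxidises methylated cytosine, had 1, 3, 3, 4 and 3 of 4 reverse-strand probes of chr10:62262341-62271961 higher at the 5 days. A_30_P01029003 differed there by 1.70, 2.48, 2.22, 2.75 and 3.14, and correlated with Tet1 at 0.974 over the 17 group means. Near Enah, a regulator of actin filaments, 2, 5, 6, 6 and 6 of 9 reverse-strand probes of chr1:183781704-183834531 were higher. A_30_P01022256 was at -4.22 to -2.92 in MGT cells and -7.19 to -5.66 in LacZ cells, with no overlap, and differed by 2.17 to 3.45, with bounds from 1.96-fold to 3.40-fold on the days with no LacZ array well above background. The gene most like it was Xirp1, an actin-binding protein of striated muscle (0.981).

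On the lower side, 2, 3, 3, 3 and 2 of the 3 probes beside E330013P04Rik fell in MGT cells. A_30_P01021981 was at -3.79 to -2.24 in LacZ cells and -8.37 to -4.95 in MGT cells, and differed by -3.23, -2.35, -4.80 (limma adjusted p = 7.4e-05, at least 9.88-fold), -2.93 and -2.91. Several of these calls rested on single arrays. Without the first MGT or the first LacZ array the day 3 call was lost (-3.12 and -3.14), the day 5 call without any 1 of the 4 arrays (-2.55 to -2.15), the day 10 call without the first MGT or second LacZ array (-2.72 and -2.83) and the day 14 call without the second MGT array (-2.55). At Mgam 2, 6, 5, 6 and 6 of 7 probes were lower. A_30_P01030527 was at -4.60 to -3.04 in MGT and -2.45 to -1.41 in LacZ cells, and the groups did not overlap.

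Whether the MGT effect itself changed between day 3 and day 10 was tested as an interaction. It was called larger at day 10 for 43 unnamed probes (0.365%, against 0.848% of all 43381 probes tested) and smaller for 34 (0.289%, against 0.436%). The effect on A_30_P01028766 was larger by 4.54 (SE 0.62, limma adjusted p = 0.00038) and that on A_30_P01029543 by 4.14 (SE 0.84, limma adjusted p = 0.014). In both, the LacZ level was lower at day 10 than at day 3 as well as the MGT level higher. Neither LacZ array of day 10 was well above background for these probes, so the size of both changes is uncertain. The lowest level well above background was -4.18 and -5.05 on those arrays. The day 3 LacZ levels of A_30_P01029543 were already near this, so a fall of that probe in LacZ cells is not shown.

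Within line 2, cells at day 29 were compared with cells at day 9. In this comparison 1358 unnamed probes were higher (11.5%, against 13% of all probes) and 1012 lower (8.60%, against 9.58%), with medians of -0.06 and -0.02. Higher probes were 57.3% of the calls, and 42.8% (1103 higher, 1475 lower) with quantile normalization, 45.1% with normexp and 44.4% with the authors' values. Without the first day 9 array 1160 were higher and 1333 lower, and without the second 1042 and 638. With array weights, which give less weight to deviating arrays, 112 probes were called in place of 2370. The day 29 arrays were far apart: the median level of the 5 endoderm genes tested was 1.51 on the first and -7.20 on the second, that of 9 fibroblast genes 4.06 and -2.22, and that of 6 cell cycle genes 2.30 and -3, and their part was not tested.

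Some regions had day 29 arrays that lay close together. At chr16:77670599-77708453, on the side of Mir99ahg, the host gene of a microRNA cluster, all 3 forward-strand probes were higher at day 29 (median 5.31; 2 of 3 with normexp). A_30_P01018977, at chr16:77691555-77691614 and 189749 bases from the Mir99ahg probe, was at -1.76 and -2.10 at day 29 and -7.54 and -7.16 at day 9, where neither array was well above background. The difference was 5.42 (SE 0.15, limma adjusted p = 9.9e-15), and the named probe differed by 5.09. Line 1 at day 13 was higher than both, with 0.05 and -0.13. A_30_P01024045, a 67-base interval at chr15:74474704-74474770 near Arc, was at -0.25 and 0.03 at day 29 and -6.89 and -5.88 at day 9, a difference of 6.27 (SE 0.28, limma adjusted p = 2.9e-12, at least 37.8-fold). It was also at 1.07 and 1.05 in CF_D0, and in MGT cells went from -1.04 and -0.95 at day 3 to -4.99 and -5.01 at day 14.

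The probes beside Meg3 were lower at day 29 for 12 of 12 on the forward and 10 of 11 on the reverse strand. A_30_P01019278, at chr12:110885159-110885218, was at 1.52 and 1.84 at day 9 and -1.14 and -3.98 at day 29 (difference -4.24, SE 0.56, limma adjusted p = 8.7e-06), and was not called with array weights (adjusted p = 0.11). The 3 Meg3 probes differed by -1.48, -2.41 and -1.54. In the Gsta cluster all 4 forward-strand and 1 of 4 reverse-strand probes were higher at day 29, with A_30_P01028766 at -0.42 and 1.66 against -7.14 and -7.68 (at least 62.7-fold). It is the probe that was also higher in MGT than in LacZ cells.

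LacZ cells of day 14 were compared with the uninfected fibroblasts to describe what culture with the control virus did. In this comparison 1195 unnamed probes were higher (10.2%, against 13% of all probes) and 1315 lower (11.2%, against 11.9%), with medians of 0.15 and 0.10. Higher probes were 47.6% of the calls, and 36.9% (1040 higher, 1776 lower) with quantile normalization, 42.6% with normexp and 38.9% with the authors' values. Without the first LacZ array 2004 were higher and 1110 lower (64.4% higher), and without the second 809 and 1336 (37.7%). All 3 probes beside E330013P04Rik were higher in LacZ day 14, and 3 of the forward-strand Gsta cluster probes were lower, A_30_P01028766 by -6.16 (at least 50.5-fold). This comparison shares its LacZ arrays with the day 14 comparison of MGT and LacZ, so these regions are not independent evidence beside the MGT differences above. The macrophage markers had medians of 4.58 and 4.99 in LacZ day 14 and 0.10 and 0.11 in CF_D0.

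A few probes were seen in 1 group alone, and these were chosen by that pattern. A_30_P01024611 was at -1.59 and -1.16 in LacZ day 10 with no other group mean above -6.35, A_30_P01028181 at -1.63 and -1.64 in neoCM, A_30_P01030620 at -1.89 and -2.41 in neoCM, and A_30_P01027035 at -1.35 and -2.36 in MGT day 5. For A_30_P01017995 the 2 arrays of LacZ day 10 lay far apart, at 1.18 and -3.89. Others hardly moved. A_30_P01023675, at chr7:134374716-134375286, had group means from -3.6 to -3.19, and A_30_P01029824 in the region of Phf14, a gene with zinc fingers of the PHD type, lay between 2.51 and 3.53 on every array but the second of iPSC2CM_D29 (1.92).

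For comparison, 29 genes of a list of 46 established long non-coding RNAs had probes bright enough to be tested, 53 probes in all. In iCM 6 were higher and 22 lower than in neoCF, 5 and 19 than in neoCM, and 4 and 36 than in the stem cell derived cells, in which 18 were higher and 1 lower than in neoCF. As shares of the 53 probes, 41.5%, 35.8% and 67.9% were lower in iCM, beside the 22.6%, 23.7% and 35.2% of all probes given above. Those higher in iCM made up 11.3%, 9.43% and 7.55%, beside 13.1%, 13.8% and 15.1% of all probes. In the stem cell derived cells against neoCF 34.0% were higher and 1.89% lower, beside 21.5% and 13.9%. These counts were not recomputed with other scalings. Between MGT and LacZ cells 1, 0, 1, 2 and 2 were higher and 0, 8, 14, 14 and 13 lower at the 5 days. The higher shares were 1.89, 0, 1.89, 3.77 and 3.77%, against 2.28, 4.14, 4.13, 4.16 and 5.64% of all probes. The lower shares were 0, 15.1, 26.4, 26.4 and 24.5%, against 1.34, 2.51, 2.53, 2.73 and 7.48%. At days 7 and 10 the lower probes belonged to Gas5, H19, Meg3, Mirg, Snhg12 and Zfas1 only, so several read the same RNA. Mhrt was higher by 3.81, 4.48 and 4.64 at days 7, 10 and 14, and differed by 5.72 between neoCM and neoCF and by -6.08 between iCM and neoCM. H19 was lower at days 5 to 14, by -1.15, -1.68, -2.36 and -2.14. Neat1, the scaffold of nuclear paraspeckles, was higher in iCM than in neoCF (2.75), neoCM (2.80) and the stem cell derived cells (3.25).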

How the data were processed

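Total RNA of 17 groups of mouse cells, 2 arrays each, was measured on 34 one-colour Agilent arrays. Per the file headers, Feature Extraction 10.7.3.1 made the processed intensity values, which are background-corrected by that software, and placed probes on build mm9. Its 0 or 1 marks for spots well above background were used as deposited. The authors' deposited log2 values, with column medians from 7.49 to 7.52, correlated with the log2 processed intensities at 0.982 or more on each array. Their scale is log2, their direction follows brightness, and their normalization method is not given in the sources used here. The submitters' processing notes name limma, with no version.

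From these files, outlier spots (119 to 321 per array) were left out, spots of a probe were averaged, and log2 of the processed intensity minus the array's 75th percentile was fitted with limma 3.58.1 (R 4.3.3), with 1 mean per group over all 34 arrays (17 residual degrees of freedom). The 43382 probes well above background on each array of at least 1 group were tested together, 43381 where a value was missing, in 12 comparisons and 1 interaction. Figures and counts were made with Python 3.11.15. The fit was tested on simulated data. Gene names were matched to RefSeq names of GRCm38.p6 (26056 by accession, 3200 by symbol, 930 by older symbol), and 8391 kept the file's name. Identifier, position and sequence of the unnamed probes are the files' own.

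The probes and gene lists were chosen with earlier results of these data known. Named probes were the 5 highest and 5 lowest changes of each comparison (1 probe per interval, no missing value, the brighter side well above background), up to 10 probes called in 1 direction at all 5 MGT days, 5 seen in 1 group only, and steady ones. The 26 loci examined, the other probes in them and the identifier-only probes were chosen after their values were seen. Alternatives were quantile normalization, normexp (offset 50), the authors' values, other filters, array weights, slide and replicate number as blocks, the fit without iPSC2CM_D29, and leaving out each array. The number of arrays limits the precision. Not all of these loci are reported here.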

Additional observations from a re-analysis of the deposited data

Results flagged for a closer look

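The test of the difference between the MGT effect (MGT minus LacZ) at day 10 and at day 3 singled out 5 of the probes described. The effect was larger at day 10 by 4.14 for A_30_P01029543 beside Actc1 (SE 0.84, limma adjusted p = 0.014). In the Gsta cluster it was larger by 4.54 for A_30_P01028766 (SE 0.62, limma adjusted p = 0.00038) and by 4.28 for A_30_P01018914 (SE 0.75, limma adjusted p = 0.0036). At 2310015D24Rik it was larger by 1.89 for A_30_P01021691 (SE 0.45, limma adjusted p = 0.040) and by 2.89 for A_30_P01032714 (SE 0.59, limma adjusted p = 0.013). For A_30_P01021691 neither MGT array of day 3 and no LacZ array was well above background. For A_30_P01029543 and A_30_P01028766 neither LacZ array of day 10 was. With 2 arrays in a group, no array could be tested as standing apart from the others of its group.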

How the results depend on the processing

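Of the counts of called probes recomputed with another processing, 84 stayed within 1.5 times the value given and 23 moved. Fits that left out single arrays were not among these, nor were the shares and correlations given at the end of this paragraph. The cause was not tested. With normexp background correction and quantile normalization fewer unnamed probes were called in all 12 comparisons: 1549 (3487 in the main analysis) in neoCM against neoCF, 1419 (3953) in iCM and 1437 (3753) in the stem cell derived cells against neoCF, 1647 (4304) in iCM against neoCM, 2109 (6273) in iCM against the stem cell derived cells, 1278 (2370) in iPSC2CM_D29 against D9, 88, 284, 211, 303 and 446 (235, 554, 473, 563 and 1569) in MGT against LacZ at days 3, 5, 7, 10 and 14, and 1161 (2510) in LacZ day 14 against CF_D0. The authors' values gave 2311 in iCM and 2345 in the stem cell derived cells against neoCF, 2575 in iCM against neoCM, 3240 in iCM against the stem cell derived cells and 876 in MGT against LacZ at day 14. Array weights gave 112 in iPSC2CM_D29 against D9, and 651, 973, 832 and 1015 in MGT against LacZ at days 3, 5, 7 and 14. Without the iPSC2CM_D29 group in the fit, the day 3 count was 373. The median share of unnamed probes seen in a group, 44%, was 51% when 1 array sufficed and 65.4% with the scanner's weaker mark, positive and significant, on both arrays. The intervals seen from 1 strand numbered 128, and 214 when 3 groups were required. The median correlations of probes of an interval, 0.57 on the same and 0.28 on opposite strands, were 0.48 and 0.16 with quantile normalization.

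Leaving out 1 array gave 142 to 166 calls at day 3, 309 to 380 at day 7 and 928 to 2436 at day 14 of MGT against LacZ, and the share of higher calls at day 14 ran from 30 to 59.4%. For the probes named, 2932 of 3017 recomputed differences stayed on their side of the threshold in the same direction, 69 no longer passed it, 15 newly passed it and 1 turned: A_30_P01025861 in MGT against LacZ at day 14, not called at -1.09, ran from -2.75 to 0.57 (without the first MGT array). Replicate numbers did not pair the arrays: over 136 pairs of groups, deviations of same-numbered arrays correlated at -0.154 to 0.158, and with the replicate number as a block the counts were 3489, 3961, 3750, 4302, 6267, 2368, 235, 556, 471, 568, 1562 and 2506 in the order above. The slide as a block moved none of the 12 counts by more than 1.5 times, but this could not show a slide effect. For groups that shared a slide, the block set apart only the first neoCM array, alone on its slide. The iCM against neoCM count, 4042, was thus that without this array. In the other comparisons slide and group cannot be told apart.

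Dim probes are one limit of these arrays. The lowest level well above background ran from -6.86 to -4.18 over the arrays, so a difference from a dim group is a bound and a probe not seen on 1 array can be one seen on a brighter one.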

Other observations

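Beyond the regions above, some other unnamed probes were called. At Trim30c, one of a cluster of near-identical immune genes on chromosome 7 (chr7:111526943-111545093), 3 of 4 reverse-strand probes were lower in neoCM and in the stem cell derived cells than in neoCF, and 3 of 4 were higher in iCM than in neoCM (median 2.43) and than in the stem cell derived cells (3.06). In MGT against LacZ cells 2, 3 and 2 of these 4 were lower at days 3, 5 and 7. The macrophage markers, whose levels are given above, moved with this locus in the first 4 of these comparisons, and their part was not tested. The Trim30c probe itself was at -6.63 and -7.23 in iCM and -7.78 and -6.03 in neoCM, and was well above background on both arrays of neoCF and CF_D0 only. A_30_P01024661 of this locus correlated at 0.996 with Trim30a and with Trim30d over the 17 group means. The Trim30a probe was at 0.60 and 0.54 in iCM and -5.12 and -5.65 in neoCM. Which gene of the cluster these unnamed probes read is uncertain. At chr6:90745692-90777977, 119941 bases from Iqsec1, A_30_P01033661 was at -6.19 and -7.72 in iCM and 2.37 and 0.99 in iPSC2CM_D29, with -0.32, -0.37, -0.87 and -0.14 in the younger stem cell derived cells and a difference of -6.53 between iCM and the latter. Its pattern over the 17 group means was most like that of Myo18b, a muscle myosin gene (0.972), although neoCM had -4.48 and -4.69.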
